A study of Mus musculus with 30 samples.

Results

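Cubn, Amn, Lrp2 and Dab2 encode an endocytic receptor complex and its clathrin adaptor, and their transcripts were followed through the conversion of mouse fibroblasts into pluripotent cells with small molecules. The members were the rows of these 4 gene symbols, of 35275 entries, in a table of FPKM values (fragments scaled by gene length and library depth) from bulk RNA-seq, and all 4 were found once. The study traced chemical reprogramming through an intermediate akin to extraembryonic endoderm stem cells, called XEN-like. Its 14 bulk libraries are described here, 1 library per group, and the libraries from single cells and from bisulfite sequencing were not analysed here.

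Cubn encodes cubilin, a large extracellular protein that binds many ligands but has no membrane anchor of its own. Amn encodes amnionless, the transmembrane partner that carries cubilin to the cell surface, and the pair is known as the receptor for the complex of vitamin B12 with intrinsic factor. Lrp2 encodes megalin, a giant receptor of the LDL receptor family that often works with cubilin. Dab2 encodes a phosphotyrosine-binding (PTB) domain adaptor that links the tails of megalin and related receptors to clathrin and AP-2. The set is best known for protein uptake in the visceral endoderm of the yolk sac and in the kidney proximal tubule.

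The libraries of the main path were stage II day 12 cells, stage III day 6, 15 and 21 cells, a chemically induced pluripotent line (CiPSC), XEN-like cells and the starting mouse embryonic fibroblasts (MEF, from E13.5 embryos). All of them came from a cross of the C57BL/6J-Tg(GOFGFP)11Imeg strain with ICR. The XEN-like cells were a purified line kept in stage I medium with 20 ng/ml bFGF. The CiPSC library was line 1. Stage II day 12 was sampled in N2B27 medium, in FBS/KSR medium (fetal bovine serum and a serum substitute), and after a sort for OG+ PDGFRAlow/- PECAM- cells, all from the same cross. Stage III day 4 cells of that cross were sampled with Opt. VPA and without it, VPA being valproic acid, which inhibits histone deacetylases. For the sorted OG+ cells and the stage III cells the labels do not give which stage II medium came before. A sorted pair of stage II day 12 cells, positive and negative for a Zscan4c-Emerald reporter, came from XEN-like cells made from reporter embryonic stem cells of the cross 129S6/SvEvTac x C57BL/6Ncr. The embryonic stem cell library (ESC) came from E3.5 embryos of ICR mice.

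Recovered depths ran from 6601290 to 15294927 reads per library. Since every group is a single library, the differences have no replicate check and no test was run. Ranges after a fold are exact 95% counting intervals, and they cover counting error only. The XEN-like library held 9 of 10 endoderm factors at 1 FPKM or more, among them Gata4 at 886 FPKM and Sox17 at 405 FPKM. The visceral endoderm list of 11 genes was mixed. Afp reached at most 1.72 FPKM, and Trf, Apob and Cer1 stayed under 1 FPKM in all 14 libraries, while Cited1 had 1228 FPKM and Ihh 90.5 FPKM in XEN-like cells. Of its other secreted products, Apoa1 reached 177 FPKM in reporter-positive cells, Rbp4 32.4 FPKM in reporter-negative cells and Ttr 16.7 FPKM at stage III day 15. In XEN-like cells Apoa1 had 0.144 FPKM, Rbp4 9.77 FPKM and Ttr 1.16 FPKM. In a kidney proximal tubule list of 6 genes, Slc34a1, Slc22a6, Slc5a12 and Umod stayed under 1 FPKM throughout, while the water channel gene Aqp1 reached 26.8 FPKM in XEN-like cells and Slc5a2 5.83 FPKM in FBS/KSR cells. The fibroblast list of 10 genes summed to 20068 FPKM in MEF, and to at most 4.94% of that in any other library.

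Cubn, the ligand-binding subunit, was high in 2 of 14 libraries and low or undetected in the others. Its level was 127 FPKM in stage II FBS/KSR cells (8153 reads) and 105 FPKM in XEN-like cells (3756 reads). The next level was 6.10 FPKM in sorted OG+ cells, so XEN-like cells stood 17.3-fold above the next library down (15.2 to 19.8). Between these groups of libraries no intermediate level was seen.

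Below the gap, Cubn was measured at 4.47 FPKM in stage II N2B27 cells, 3.61 FPKM at stage III day 6 and 3.40 FPKM in reporter-negative cells. It was 2.74 FPKM in stage III day 4 Opt. VPA cells, 2.20 FPKM in their control and 1.11 FPKM in reporter-positive cells. Levels under 1 FPKM were 0.768 at stage III day 15, 0.729 in MEF and 0.582 at stage III day 21. Over all 11 neighbouring pairs of libraries with Cubn reads, 7 lay within counting error, all of them among these low levels. Among the steps that did not was that of the day 4 control over reporter-positive cells, 1.98-fold (1.28 to 3.10). CiPSC and ESC each held 0 Cubn reads. A floor of 3 reads stands at 0.0620 FPKM in CiPSC and 0.0772 FPKM in ESC. The exact 95% upper limits for 0 reads were 0.076 FPKM in CiPSC and 0.095 FPKM in ESC.

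In the mouse build GRCm38.p6 of RefSeq, Cubn lies at chr2:13276338-13491876. The 250 bases before its start are shown with CpG pairs in capitals, because this promoter and that of Lrp2 differ widely in CpG content although both genes were high in XEN-like cells. It lies at chr2:13491877-13492126, minus strand, 5′ to 3′.
Cubn promoter: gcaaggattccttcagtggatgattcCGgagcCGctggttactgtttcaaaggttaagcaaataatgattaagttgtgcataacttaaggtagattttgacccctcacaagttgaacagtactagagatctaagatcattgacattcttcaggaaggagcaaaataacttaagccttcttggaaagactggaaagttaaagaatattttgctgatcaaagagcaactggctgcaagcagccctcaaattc
This stretch holds 2 CpG pairs and 39.6% G and C, against a median of 6 CpG pairs over 32851 RefSeq promoters of the same length. Of those promoters, 18.8% hold fewer CpG pairs.

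Amn, the membrane anchor of cubilin, had its own order of libraries. Reporter-negative cells had the highest level at 18.8 FPKM (274 reads). FBS/KSR cells followed at 15.4 FPKM (397 reads), reporter-positive cells at 6.45 FPKM (79 reads) and XEN-like cells at 3.92 FPKM (56 reads). These 4 libraries and N2B27 cells, at 1.34 FPKM, were the 5 libraries at 1 FPKM or more, and each of the first 4 exceeded the next by more than counting error.

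The other 9 libraries held 3 to 15 Amn reads each. Levels ran from 0.182 FPKM in MEF and 0.250 FPKM at stage III day 15 to 0.809 FPKM at stage III day 6 and 0.964 FPKM in ESC. From N2B27 cells downward, all 9 neighbouring pairs lay within counting error, so no order between neighbours can be read at this depth. Libraries farther apart could still differ, as Amn was 3.545-fold lower in sorted OG+ cells than in N2B27 cells (1.33 to 10.98). Amn lies at chr12:111271096-111276426, and the 250 bases before its start hold 11 CpG pairs.

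Lrp2, the megalin gene, was highest in XEN-like cells and lowest in MEF. It was 122 FPKM in XEN-like cells, 98.6 FPKM in the stage III day 4 control, 90.0 FPKM in Opt. VPA cells and 83.6 FPKM in FBS/KSR cells. It was 57.2 FPKM at stage III day 6, 52.2 FPKM in N2B27 cells, 34.1 FPKM at stage III day 15, 24.0 FPKM in sorted OG+ cells and 15.8 FPKM at stage III day 21. Unlike Cubn, Lrp2 thus stayed at 15.8 FPKM or more in every unsorted library between MEF and CiPSC.

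The lower end of Lrp2 held both pluripotent lines and the fibroblasts. It was 8.45 FPKM in reporter-negative cells, 5.88 FPKM in reporter-positive cells, 3.82 FPKM in ESC, 1.95 FPKM in CiPSC and 1.00 FPKM in MEF (55 reads). All 13 neighbouring pairs in this order differed by more than counting error, although the smallest step, Opt. VPA over FBS/KSR cells, was 1.08-fold (1.04 to 1.12). Lrp2 was at 1 FPKM or more in 14 of 14 libraries.

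Lrp2 lies at chr2:69424335-69586029, on the same chromosome as Cubn. The 250 bases before its start, at chr2:69586030-69586279, minus strand, are shown 5′ to 3′ with CpG pairs in capitals.
Lrp2 promoter: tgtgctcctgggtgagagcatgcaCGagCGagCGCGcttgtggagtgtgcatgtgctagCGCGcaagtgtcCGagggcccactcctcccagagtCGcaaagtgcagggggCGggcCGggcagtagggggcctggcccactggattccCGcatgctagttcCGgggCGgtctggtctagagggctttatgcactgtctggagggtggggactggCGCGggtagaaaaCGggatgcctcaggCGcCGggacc
It holds 18 CpG pairs and 66.4% G and C, and 78.3% of the RefSeq promoters hold fewer CpG pairs.

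Dab2, the clathrin adaptor, was the member with high levels in the largest number of libraries. It was 219.5 FPKM in FBS/KSR cells, 158 FPKM in sorted OG+ cells, 148 FPKM in XEN-like cells, 142 FPKM in the stage III day 4 control and 139 FPKM at stage III day 15. The steps among XEN-like cells, the day 4 control and day 15 lay within counting error. Dab2 stood at 50 FPKM or more in 8 libraries, against 6 for Lrp2, 2 for Cubn and 0 for Amn.

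At intermediate levels Dab2 was 111 FPKM at stage III day 6, 85.8 FPKM in Opt. VPA cells, 57.9 FPKM at stage III day 21 and 48.6 FPKM in MEF. It was the only member above 2 FPKM in MEF. N2B27 cells had 25.8 FPKM, reporter-negative cells 20.1 FPKM and reporter-positive cells 8.45 FPKM. Both pluripotent lines were lowest, with 1.58 FPKM in CiPSC (35 reads) and 1.46 FPKM in ESC (26 reads), which lay within counting error of each other.

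Dab2 lies at chr15:6299788-6440715 and RefSeq gives it 2 promoters with starts far apart. GATAA, the core that GATA factors are known to bind, was searched on both strands because Gata4 and Gata6 were high in XEN-like cells. The promoter of the first start, chr15:6299539-6299788, plus strand, is shown 5′ to 3′ with GATAA in capitals.
Dab2 promoter of the first start: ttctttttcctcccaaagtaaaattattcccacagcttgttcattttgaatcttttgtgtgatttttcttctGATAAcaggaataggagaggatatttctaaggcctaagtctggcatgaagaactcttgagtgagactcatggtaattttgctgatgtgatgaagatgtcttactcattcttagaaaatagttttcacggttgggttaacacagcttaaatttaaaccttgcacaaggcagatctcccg
One GATAA begins 178 bases before the start. GATAA or its reverse complement TTATC occurs in 22.6% of all 32851 promoters, so such a match is common. No GATAA lies in the other 4 promoters of the members, and ATTGTT (9.42% of all promoters) and TGTTTAC (3.17%), searched with their reverse complements AACAAT and GTAAACA, lie in none of the 5. The first Dab2 promoter holds 2 CpG pairs and that of the second start 17, and the table does not say which start the reads came from.

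**Figure D1:**
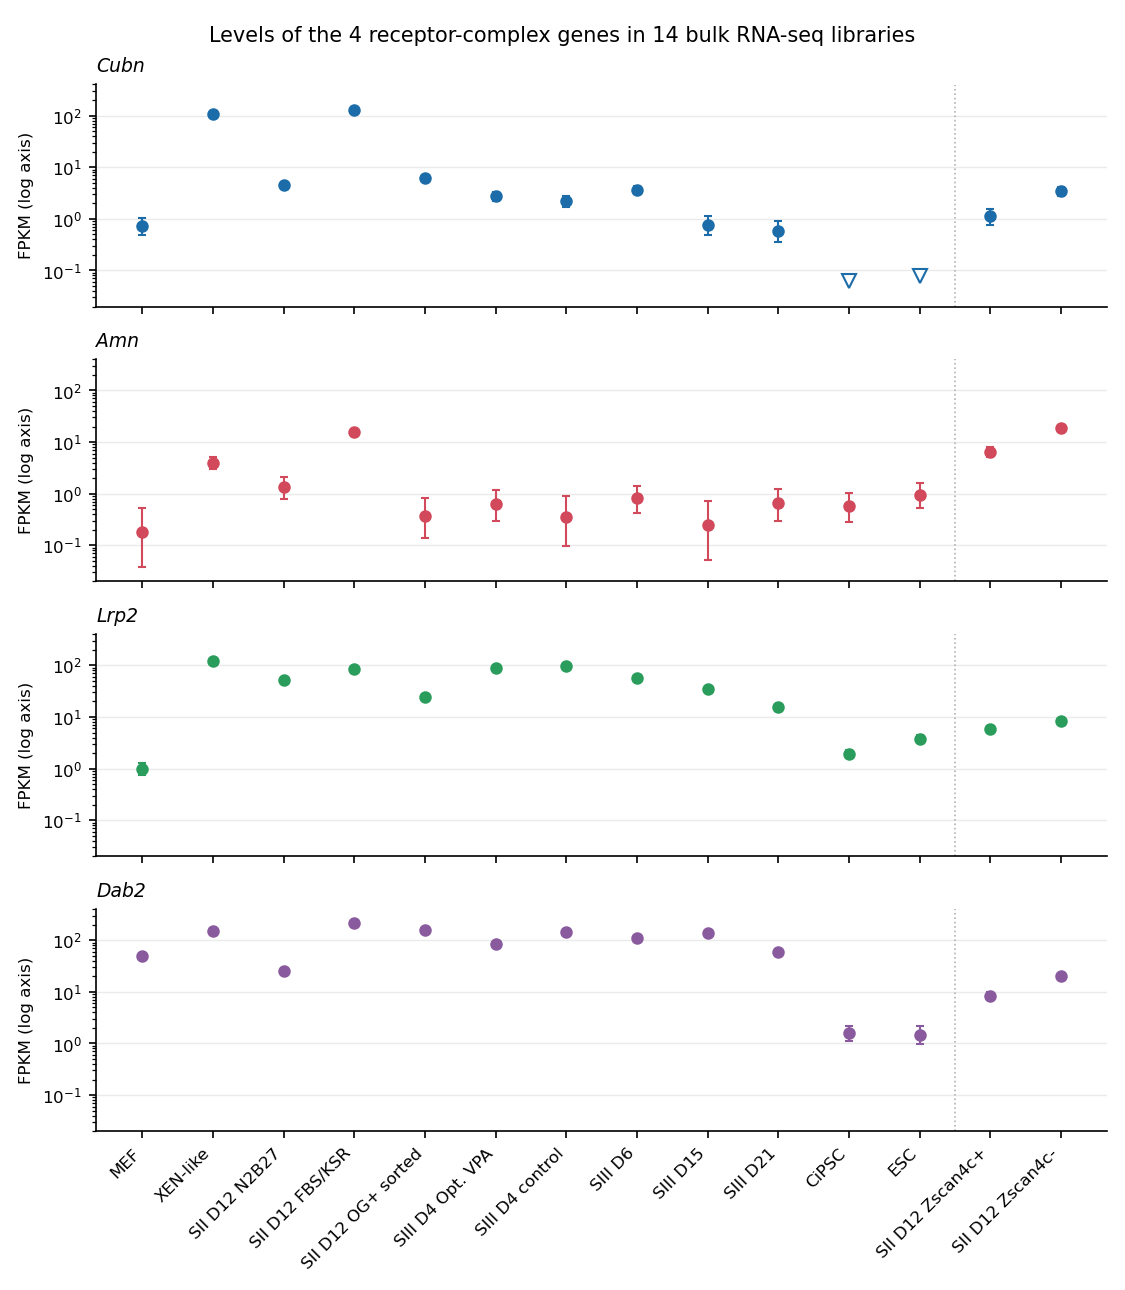
Level in FPKM (log axis) of Cubn, Amn, Lrp2 and Dab2 in each of 14 single libraries. Bars are exact 95% counting intervals, open triangles mark the level of 3 reads where 0 reads were counted, and the dotted line sets apart the reporter pair of another strain. Cubn stands near 100 FPKM in XEN-like and FBS/KSR cells alone, Amn peaks in the reporter-negative cells, and Lrp2 and Dab2 stay at 15.8 FPKM or more from XEN-like cells to stage III day 21.

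All 4 genes were higher in XEN-like cells than in MEF. A gene was called higher or lower when log2(FPKM+1) differed by at least 1 (2-fold), for genes that reached 1 FPKM in at least 1 of the pair, which are the measured genes. By this rule 4 of 4 members were higher and 0 lower, against 18.8% higher and 17.5% lower over 13360 measured genes. Cubn had 105 FPKM in XEN-like cells and 0.729 FPKM in MEF, a 144-fold ratio (101 to 214). Lrp2, with 122 and 1.00 FPKM in XEN-like cells and MEF, was 122-fold higher (93.4 to 162). Cubilin and megalin transcripts thus differed by similar factors, and those of the adaptor by less. Dab2 was 3.05-fold higher (2.83 to 3.30), at 148 FPKM in XEN-like cells and 48.6 FPKM in MEF. Amn was 21.5-fold higher, but its 56 reads in XEN-like cells and 3 reads in MEF leave an interval of 7.0 to 107. In bulk libraries, fewer cells with a transcript and less transcript per cell cannot be told apart.

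The same 4 genes were higher in XEN-like cells than in ESC, where 19.7% of 13749 genes were higher and 18.5% lower. These 2 comparisons share the XEN-like library. Cubn had 3756 reads in XEN-like cells and 0 in ESC. With 3 reads set in place of 0, Cubn was 1365-fold higher, a value that is not a bound. Dab2 was 101-fold higher (68.9 to 155), at 148 FPKM in XEN-like cells and 1.46 FPKM in ESC. Lrp2 was 32.0-fold higher (27.7 to 37.0) and Amn 4.07-fold higher (2.27 to 7.75). Relative to ESC, the adaptor differed more than megalin did. Relative to MEF the order of these genes was the other way round.

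After XEN-like cells, the members parted according to the stage II medium. In N2B27 cells 4 of 4 members were lower than in XEN-like cells, where 8.56% of 13967 genes were lower and 17.7% higher. Cubn, at 4.47 FPKM in N2B27 cells and 105 FPKM in XEN-like cells, was 23.5-fold lower (19.9 to 28.0). Dab2 was 5.74-fold lower (5.14 to 6.41), at 25.8 and 148 FPKM. Cubilin transcripts therefore differed most and those of its partner megalin much less. Lrp2 was 2.34-fold lower (2.23 to 2.46), at 52.2 FPKM in N2B27 cells and 122 FPKM in XEN-like cells. Amn was 2.93-fold lower (1.68 to 5.38), with 17 reads in N2B27 cells and 56 in XEN-like cells.

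In FBS/KSR medium at the same stage no member was called lower than in XEN-like cells. Relative to XEN-like cells 1 of 4 members was called higher (16.1% of 13677 genes were higher) and 0 of 4 lower (10.3% of genes were lower). That member was Amn, at 15.4 FPKM in FBS/KSR cells and 3.92 FPKM in XEN-like cells, a ratio of 3.93 (2.96 to 5.30). Cubn stood at 1.20 times its XEN-like level (1.16 to 1.25), Dab2 at 1.48 times (1.41 to 1.55) and Lrp2 at 0.684 times (0.661 to 0.709). FBS/KSR cells were the only library in which the levels of all 4 genes exceeded 10 FPKM.

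Set against each other, N2B27 cells had lower levels than FBS/KSR cells in 3 of 4 members, where 7.30% of 14047 genes were lower and 10.7% higher. Cubn had 4.47 FPKM in N2B27 cells and 127 FPKM in FBS/KSR cells, 28.3-fold lower (24.0 to 33.7). Amn was 11.5-fold lower (7.10 to 20.0), at 1.34 and 15.4 FPKM, and Dab2 8.50-fold lower (7.66 to 9.46), at 25.8 and 219.5 FPKM. Lrp2 was not called, at 52.2 FPKM in N2B27 cells and 83.6 FPKM in FBS/KSR cells, 1.60-fold lower (1.53 to 1.68). The medium difference was thus largest for Cubn and smallest for Lrp2, and the intervals of Amn and Dab2 overlap.

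Markers of other cell types moved between these stage II libraries as well. The parietal endoderm list of 11 basement membrane and other genes summed to 5143 FPKM in N2B27 cells and 21034 FPKM in FBS/KSR cells, with 11 of 11 genes at 1 FPKM or more in both. In XEN-like cells it summed to 14494 FPKM. By the 2-fold rule 7 of its 11 genes were lower in N2B27 cells than in FBS/KSR cells and 0 higher. The endoderm factors summed to 674 FPKM in N2B27 cells and 952 FPKM in FBS/KSR cells, and 0 of 9 measured factors differed by the 2-fold rule. For the visceral endoderm list of 11 genes the sums were 289 and 248 FPKM, with Cer1 and Trf at 0 in N2B27 cells. Cited1 alone had 165 FPKM in N2B27 cells and 146 FPKM in FBS/KSR cells. Of 7 measured visceral genes 1 was higher in N2B27 cells, Ihh at 93.9 FPKM against 42.2 FPKM, and 2 were lower. The lower genes were Ttr, at 0.218 FPKM in N2B27 cells and 11.2 FPKM in FBS/KSR cells, and Rbp4, at 5.735 and 19.5 FPKM. Over all genes 10.7% were higher and 7.30% lower. The stage III day 4 control had the highest parietal sum, 25409 FPKM, at 2.20 FPKM of Cubn and 142 FPKM of Dab2. The part of these lists in the Cubn, Amn and Dab2 differences was not tested.

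Sorted OG+ cells held Dab2 without Cubn or Amn at comparable levels. Relative to N2B27 cells 1 of 4 members was higher and 1 lower, where 12.0% of 14348 genes were higher and 12.0% lower. Dab2 was 6.10-fold higher (5.48 to 6.82), at 158 FPKM in OG+ cells and 25.8 FPKM in N2B27 cells. Lrp2 was 2.17-fold lower (2.03 to 2.33), at 24.0 and 52.2 FPKM. Cubn was not called, at 6.10 and 4.47 FPKM in OG+ and N2B27 cells, and neither was Amn, with 6 and 17 reads. The adaptor and the receptor it serves thus differed in opposite directions.

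Relative to FBS/KSR cells, 3 of 4 members were lower in OG+ cells, where 8.79% of 14014 genes were lower and 12.8% higher. Cubn was 20.8-fold lower (18.3 to 23.7), Amn 40.8-fold lower (18.6 to 112) on 6 and 397 reads in OG+ and FBS/KSR cells, and Lrp2 3.48-fold lower (3.28 to 3.70). Dab2 was not called, at 158 FPKM in OG+ cells and 219.5 FPKM in FBS/KSR cells. Moving with these members, 8 of 9 measured endoderm factors, 8 of 11 parietal endoderm genes and 9 of 10 fibroblast genes were lower in OG+ cells. The endoderm factors summed to 366 FPKM in OG+ cells and 952 FPKM in FBS/KSR cells, the parietal list to 5317 and 21034 FPKM, and the fibroblast list to 36.7 and 258 FPKM. The sort selects against PDGFRA, and Pdgfra was 17.8 FPKM in OG+ cells, 77.9 FPKM in N2B27 cells and 104 FPKM in FBS/KSR cells. Trophoblast genes stood higher in OG+ cells, with 10 of 10 at 1 FPKM or more and a sum of 1140 FPKM, against 165 FPKM in N2B27 and 284 FPKM in FBS/KSR cells. Of 6 macrophage genes 5 were found, 3 of these at 1 FPKM or more in OG+ cells. They summed to 132 FPKM in OG+ cells, 30.1 FPKM in N2B27 cells and 109 FPKM in FBS/KSR cells. Cd68 alone had 122, 27.1 and 87.3 FPKM in these libraries. Of 4 measured macrophage genes 3 were higher in OG+ than in N2B27 cells and 0 lower, beside 12.0% and 12.0% of all genes. Ptprc, which defines blood cells, was at 0 in OG+ and N2B27 cells. The part of these markers in the Dab2 level, and of the lower lists in Cubn, Amn and Lrp2, was not tested.

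**Figure D2:**
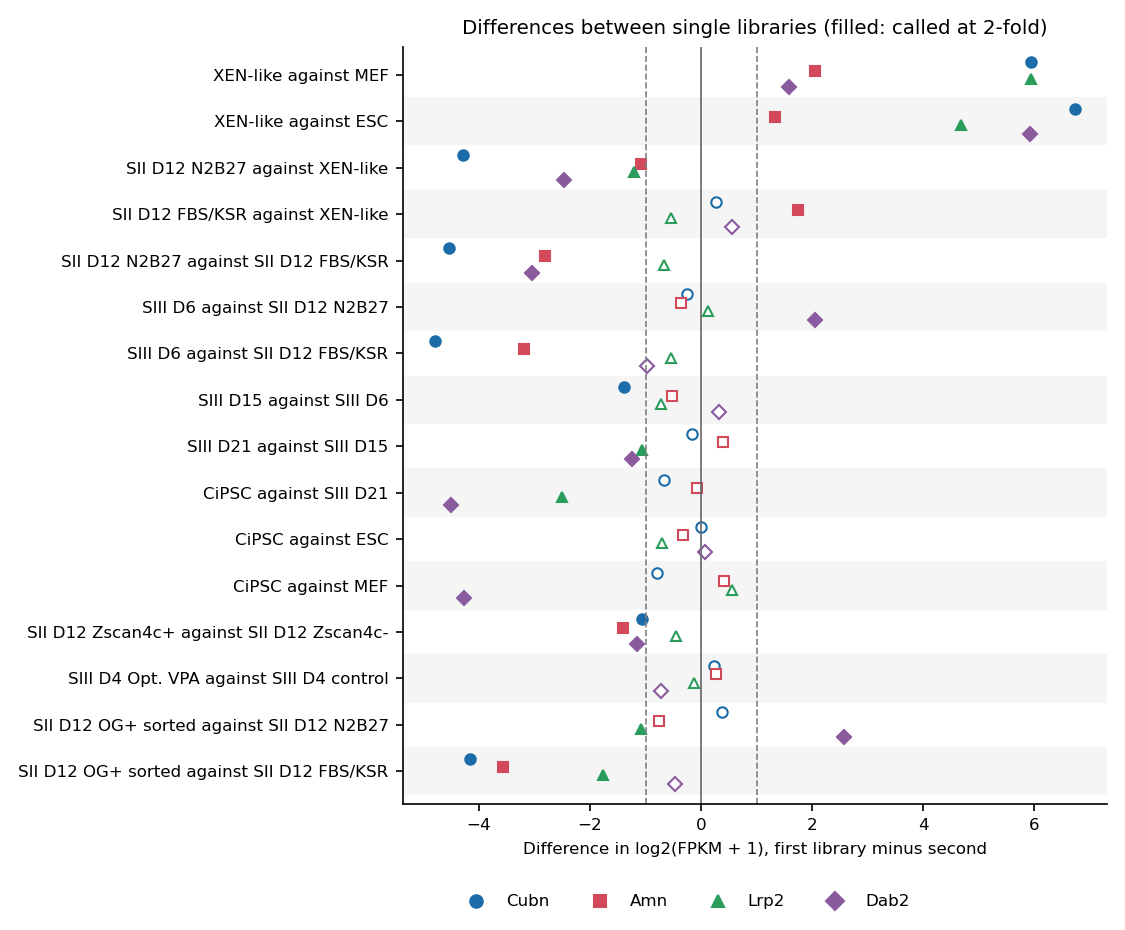
Difference in log2(FPKM+1), first library minus second, for the 4 genes in 16 comparisons of single libraries. Filled symbols passed the 2-fold rule, and dashed lines mark -1 and 1. All 4 symbols lie right of 1 for XEN-like cells against MEF or ESC and left of -1 for N2B27 against XEN-like cells.

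At stage III the levels of the members parted, with Dab2 and Lrp2 high and Cubn and Amn low. At stage III day 6 relative to N2B27 cells, 1 of 4 members was higher and 0 lower, where 9.99% of 14404 genes were higher and 8.98% lower. This was Dab2, at 111 FPKM on day 6 and 25.8 FPKM in N2B27 cells, 4.29-fold higher (3.84 to 4.80). Markers of other cell types moved with it, with 7 of 10 fibroblast genes, 8 of 10 trophoblast genes and 5 of 11 parietal endoderm genes higher on day 6. The fibroblast list summed to 716 FPKM on day 6 and 112 FPKM in N2B27 cells, the trophoblast list to 644 and 165 FPKM, and the parietal list to 12577 and 5143 FPKM. Their part in the Dab2 level was not tested. Lrp2 and Cubn were not called, at 57.2 and 3.61 FPKM on day 6 against 52.2 and 4.47 FPKM in N2B27 cells. Relative to FBS/KSR cells, 2 of 4 members were lower on day 6 and 0 higher, where 2.01% of 13876 genes were lower and 6.05% higher. They were Cubn, 35.1-fold lower (29.7 to 41.6), and Amn, 19.0-fold lower (11.0 to 36.1). Dab2 was 1.98-fold lower (1.89 to 2.09), just inside the 2-fold rule.

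Opt. VPA at stage III day 4 moved no measured member past 2-fold. Of 3 measured members 0 were higher, where 5.77% of 13571 genes were higher, and 0 were lower, where 3.28% were lower. Dab2 had 85.8 FPKM with Opt. VPA and 142 FPKM without it, 1.65-fold lower (1.54 to 1.78). Lrp2 had 90.0 and 98.6 FPKM with and without Opt. VPA, and Cubn 2.74 and 2.20 FPKM, where the interval of the ratio includes 1 (0.897 to 1.75). Amn was under 1 FPKM in both. A scaling by median of ratios shifts this comparison by 0.12 on the log2 scale, so small differences rest on the scaling.

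On stage III day 15 Cubn was under 1 FPKM, and on day 21 Lrp2 and Dab2 were lower than on day 15. On day 15, 1 of 3 measured members was lower than on day 6, where 5.02% of 14247 genes were lower and 6.23% higher. Cubn had 23 reads on day 15 and 145 on day 6, 4.70-fold lower (3.02 to 7.66). Lrp2 was 1.67-fold lower (1.57 to 1.79) and Dab2 1.26-fold higher (1.18 to 1.34), at 139 FPKM on day 15 and 111 FPKM on day 6. On day 21 the 2 members still measured were both lower than on day 15, where 7.50% of 13744 genes were lower and 1.72% higher. Lrp2 had 15.8 FPKM on day 21 and 34.1 FPKM on day 15, 2.16-fold lower (1.97 to 2.37). Dab2 had 57.9 and 139 FPKM on days 21 and 15, 2.40-fold lower (2.22 to 2.60). Under median-of-ratios scaling the log2 difference of Lrp2 moved inside the 2-fold rule. Marker lists moved with them, with 7 of 8 measured endoderm factors, 7 of 11 parietal endoderm genes and 6 of 10 fibroblast genes lower on day 21. Sox17 had 28.6 FPKM on day 21 and 91.4 FPKM on day 15. The part of these lists in the lower Lrp2 and Dab2 was not tested.

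CiPSC held little or none of each member. Relative to stage III day 21, 2 of 2 measured members were lower, where 15.4% of 13486 genes were lower and 4.88% higher. Dab2 had 1.58 FPKM in CiPSC and 57.9 FPKM on day 21, 36.5-fold lower (26.1 to 52.8). Lrp2 had 1.95 FPKM in CiPSC and 15.8 FPKM on day 21, 8.10-fold lower (6.69 to 9.86). Cubn was under 1 FPKM in both libraries, with 0 reads in CiPSC and 20 on day 21. With 3 reads set in place of 0, Cubn was 9.38-fold lower, a value that is not a bound. Median-of-ratios scaling shifts this comparison by -0.20 on the log2 scale, less than either difference. Of 8 measured endoderm factors 6 were lower in CiPSC, as were 11 of 11 parietal endoderm genes, and their part was not tested.

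No member passed the 2-fold rule between CiPSC and ESC. Of 2 measured members 0 were higher, where 1.79% of 12821 genes were higher, and 0 were lower, where 4.77% were lower. Lrp2 had 1.95 FPKM in CiPSC and 3.82 FPKM in ESC, 1.96-fold lower (1.56 to 2.46), with a log2(FPKM+1) difference of -0.71. Dab2 had 1.58 and 1.46 FPKM in CiPSC and ESC, a ratio of 1.08 (0.633 to 1.87). Scaling shifts this comparison by -0.16 on the log2 scale, and the lines differ in strain. Relative to MEF, 1 of 2 measured members was lower in CiPSC, where 25.3% of 13852 genes were lower and 25.8% higher. It was Dab2, 30.6-fold lower (21.9 to 44.3), so the member with the highest level in MEF was low in CiPSC. Lrp2 had 1.95 FPKM in CiPSC and 1.00 FPKM in MEF, a ratio of 1.95 (1.41 to 2.73).

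In the reporter pair, Zscan4c-positive cells had lower levels of the complex than negative cells. By the 2-fold rule 3 of 4 members were lower, where 5.15% of 13413 genes were lower and 8.37% higher. Amn had 6.45 FPKM in positive cells and 18.8 FPKM in negative cells, 2.92-fold lower (2.26 to 3.79). Cubn had 34 reads in positive cells and 124 in negative cells, 3.06-fold lower (2.08 to 4.62). Dab2 had 8.45 and 20.1 FPKM in positive and negative cells, 2.38-fold lower (1.92 to 2.96). Lrp2 was not called, at 5.88 FPKM in positive cells and 8.45 FPKM in negative cells, 1.44-fold lower (1.22 to 1.69). Megalin was thus again the member that differed least. The sort itself shows in the 2-cell-like list, which summed to 5939 FPKM in positive cells and 180 FPKM in negative cells. Of 10 measured endoderm factors 2 were lower in positive cells, and their part in the lower members was not tested.

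The ratio of Lrp2 to Cubn varied widely between libraries. FPKM divides by gene length, and the lengths recovered from the table were 4209 bases for Cubn, 5610 for Lrp2, 1685 for Amn and 1921 for Dab2. Cubilin and megalin are known to have longer coding sequences than these lengths, and the sources used here do not say how reads outside them were treated, so levels are compared between genes only as the table scales them. Lrp2 was 1.16 times Cubn in XEN-like cells and 0.660 times in FBS/KSR cells. It was 11.7 times Cubn in N2B27 cells, 15.8 times at stage III day 6, 44.9 times in the day 4 control and 44.5 times at day 15. In MEF, where both genes were low, it was 1.38 times Cubn, in reporter-negative cells 2.48 times and in sorted OG+ cells 3.94 times. Cubn exceeded Lrp2 in 1 of 14 libraries, FBS/KSR cells, and Lrp2 exceeded Cubn in 13.

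Amn stood below Cubn in 9 libraries and above it in 5. In XEN-like cells Cubn was 26.9 times Amn, and in FBS/KSR cells 8.22 times. The reporter pair turned this round, with Amn 5.80 times Cubn in positive cells and 5.52 times in negative cells. The remaining libraries with Amn above Cubn, stage III day 21, CiPSC and ESC, had 20 Cubn reads or fewer. Strain, starting line and sort all differ between the reporter pair and the other stage II libraries and cannot be told apart. The stage II medium of the reporter pair is not given here, so its part cannot be told apart either. Dab2 exceeded Lrp2 in 10 libraries, and Lrp2 exceeded Dab2 in 4, which were N2B27 cells, Opt. VPA cells, CiPSC and ESC.

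**Figure D3:**
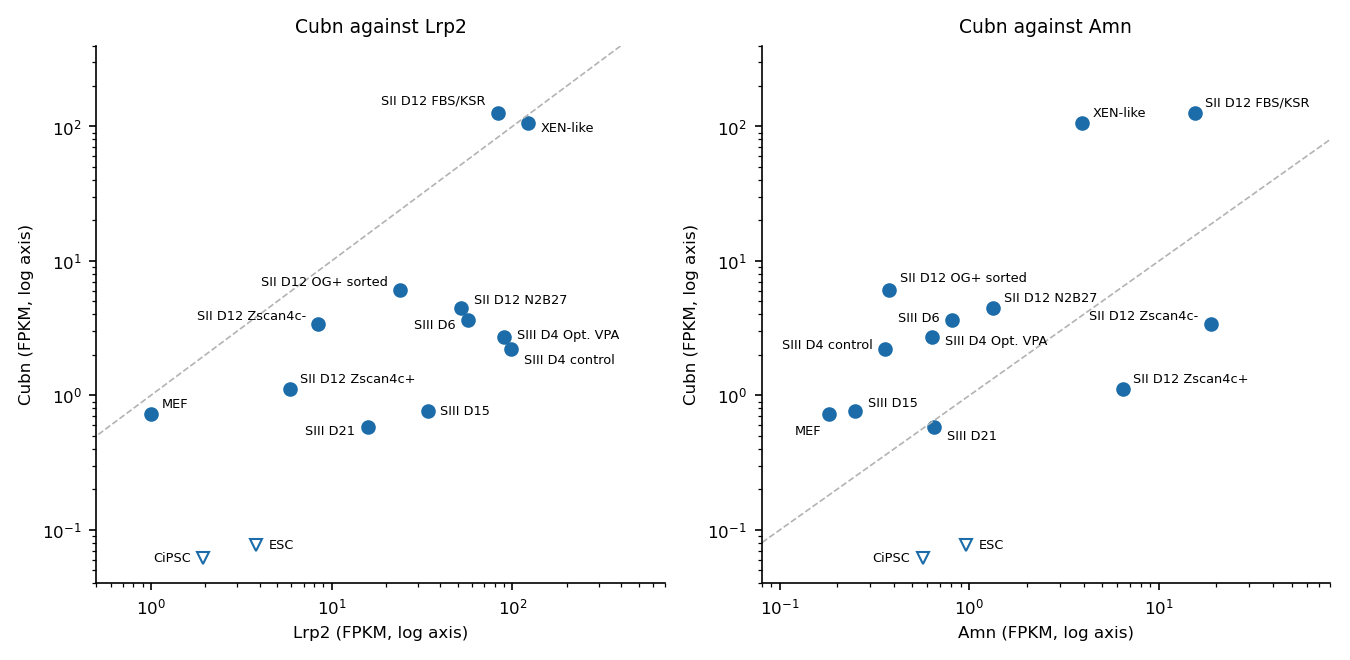
Cubn level against Lrp2 level (left) and against Amn level (right) in 14 libraries, in FPKM on log axes. The dashed line marks equal levels, and open triangles stand at the level of 3 reads where Cubn had 0 reads. XEN-like and FBS/KSR cells lie apart near 100 FPKM of Cubn, while stage III libraries keep Lrp2 with little Cubn, and the reporter pair lies right of the line for Amn.

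Across the 14 libraries, correlations of log2(FPKM+1) describe how far the 6 pairs of members ran together. Libraries are single, share stages and strains, and differ in depth, so these values carry no test. Lrp2 and Dab2 were most alike, with Pearson r 0.745 and Spearman rho 0.732. Cubn had r 0.650 with Lrp2 (rho 0.691) and 0.594 with Dab2 (rho 0.704), and neither moved much without FBS/KSR and XEN-like cells, to 0.645 and 0.618. Cubn and Amn had r 0.556 (rho 0.433), which became 0.197 without those libraries and so rested on them. Amn ran with neither Lrp2 (r 0.091) nor Dab2 (r -0.020).

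Among 10159 entries that reached 10 FPKM in a library, the 5 most like each member by Pearson r were listed. For Lrp2 they were Tnfrsf21 (r 0.973), Epas1 (r 0.973), Foxo4 (r 0.965), Scube2 (r 0.956) and Lama1 (r 0.955). Epas1, which encodes a hypoxia-inducible transcription factor, had 342 FPKM in XEN-like cells and 1.70 FPKM in MEF. Lama1, a laminin chain of basement membranes, had 639 FPKM in XEN-like cells and 1.70 FPKM in MEF. Dab2 was most like Golgb1 (r 0.969), which encodes the Golgi protein giantin, then Elf1, Rab3il1, Bend5 and Mbnl2 (r 0.953 to 0.941).

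Cubn was most like Egflam (r 0.874), Sox7, Ubash3b, Preb and Usp3 (r 0.839 to 0.823). Sox7, an endoderm transcription factor, had 105 FPKM in XEN-like cells as Cubn did, but 9.18 FPKM in FBS/KSR cells where Cubn had 127 FPKM. For Amn they were Spink3 (r 0.962), a secreted protease inhibitor gene, then Nefl, Emid1, RP23-8J15.1 and Pus7l (r 0.866 to 0.808). Spink3 had 17.5 FPKM in reporter-negative cells and 5.87 FPKM in reporter-positive cells, beside 18.8 and 6.45 FPKM of Amn. The most like genes of Cubn and Amn had lower r than those of Lrp2 and Dab2, apart from Spink3.

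The other genes of the pathway, 139 in 8 lists chosen with earlier results of these data known, did not move as a block with the members. In XEN-like cells relative to MEF, 3 of 23 measured endocytic receptors were higher and 7 lower, beside 18.8% higher and 17.5% lower over all genes. Sorl1, a sorting receptor of the LDL receptor family, had 41.6 FPKM in XEN-like cells and 1.29 FPKM in MEF. Sorcs2 was lower, at 1.15 FPKM in XEN-like cells and 84.5 FPKM in MEF, and so was the neonatal Fc receptor gene Fcgrt, at 0.882 and 39.4 FPKM. Lrp1, a close relative of megalin and the family member with the highest mean level, had 37.9 FPKM in XEN-like cells and 637 FPKM in MEF. Megalin and its relative thus had opposite patterns in this pair.

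Among the chaperones of these receptors, Lrpap1 differed between several libraries. In XEN-like cells relative to MEF 1 of 6 was higher and 0 lower, where 18.8% of all genes were higher and 17.5% lower. That was Lrpap1, the receptor-associated protein that escorts megalin to the surface. It had 311 FPKM in XEN-like cells and 81.7 FPKM in MEF. In stage II cells Lrpap1 was 295 FPKM in N2B27 medium and 1266 FPKM in FBS/KSR medium. In sorted OG+ cells it was 800.5 FPKM. Lrpap1 and Lrp2 were both lower in CiPSC than on stage III day 21, with Lrpap1 at 118 FPKM in CiPSC and 355 FPKM on day 21. Both were also lower in N2B27 cells than in FBS/KSR cells, and on day 21 than on day 15. In some other pairs of libraries these genes went opposite ways. Lrp2 was 24.0 FPKM in OG+ cells and 52.2 FPKM in N2B27 cells, and 83.6 FPKM in FBS/KSR cells and 122 FPKM in XEN-like cells. In reporter-positive and negative cells Lrpap1 had 232 and 133 FPKM, and Lrp2 5.88 and 8.45 FPKM.

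Among 13 measured PTB and other cargo adaptors, 3 were higher and 2 lower in XEN-like cells relative to MEF. Over all genes 18.8% were higher and 17.5% lower. Myo6, the myosin motor that binds Dab2, had 21.5 FPKM in XEN-like cells and 4.97 FPKM in MEF. Of 24 clathrin coat and AP-2 genes, 1 was higher and 4 lower in XEN-like cells relative to MEF, and the share lower is near the 17.5% over all genes. Cltc, the clathrin heavy chain, stood between 93.8 and 202 FPKM in all 14 libraries. Epn3, an epsin, was the clathrin list's largest difference in N2B27 cells relative to XEN-like cells, at 10.2 and 0.396 FPKM.

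Endosome and lysosome genes counted 6 higher and 1 lower of 28 in XEN-like cells relative to MEF, and 0 higher and 8 lower in CiPSC relative to stage III day 21. Over all genes, 18.8% were higher in XEN-like cells, a share near that of the list, and 15.4% were lower in CiPSC. Ctsl, a lysosomal protease, had 106 FPKM in CiPSC and 649 FPKM on day 21, and Lamp2 had 16.1 and 74.5 FPKM. In N2B27 relative to FBS/KSR cells, where Cubn, Amn and Dab2 were lower, 0 of 28 were higher and 0 lower. Over all genes 10.7% were higher and 7.30% lower between these media. Cubn, Amn and Dab2 passed the rule there, and none of these endosomal genes did. On the scale of FPKM itself Ehd3 and Rab4a differed by more than 2-fold, with 1.96 and 24.4 FPKM in N2B27 cells against 0.661 and 12.0 FPKM in FBS/KSR cells.

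Some ligands of cubilin and megalin were themselves expressed. Of 20 cargo genes 8 were measured in XEN-like cells and MEF. Of these, 6 were higher and 1 lower in XEN-like cells, beside 18.8% higher and 17.5% lower over all genes. Clu, which encodes clusterin, a megalin ligand, had 367 FPKM in XEN-like cells and 20.6 FPKM in MEF, and 7.84 FPKM in CiPSC. Tcn2, Gif and Cd320 were named after their values were seen, for their part in vitamin B12 uptake. Tcn2, the serum carrier of vitamin B12, had 65.1 FPKM in XEN-like cells and 31.7 FPKM in MEF. Gif, intrinsic factor, was at 0 in 12 of 14 libraries and at most 0.0704 FPKM. Cd320, the receptor for transcobalamin and so another route for vitamin B12, had 20.4 FPKM in XEN-like cells, 36.4 FPKM in CiPSC and 10.9 FPKM in MEF. Transcripts of Cd320 were thus present in CiPSC, where Cubn was at 0 reads, and uptake of vitamin B12 was not measured. Of 10 genes for handling vitamin B12 inside the cell, 1 was higher and 1 lower in XEN-like cells relative to MEF. The shares over all genes were 18.8% and 17.5%.

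Megalin also takes up the carriers of vitamins A and D. In that list, 2 of 6 measured genes were higher and 2 lower in XEN-like cells relative to MEF, beside 18.8% and 17.5% of all genes. Stra6, the receptor for retinol-binding protein, had 581 FPKM in XEN-like cells and was listed at 0 in MEF. S100g, a vitamin D-responsive calcium-binding protein of gut and kidney, had 3403 FPKM in XEN-like cells and 0.639 FPKM in MEF. S100g then differed from Cubn between the stage II media, with 3934 FPKM in N2B27 cells and 292 FPKM in FBS/KSR cells. It was the reverse order of Cubn in the same libraries.

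**Figure D4:**
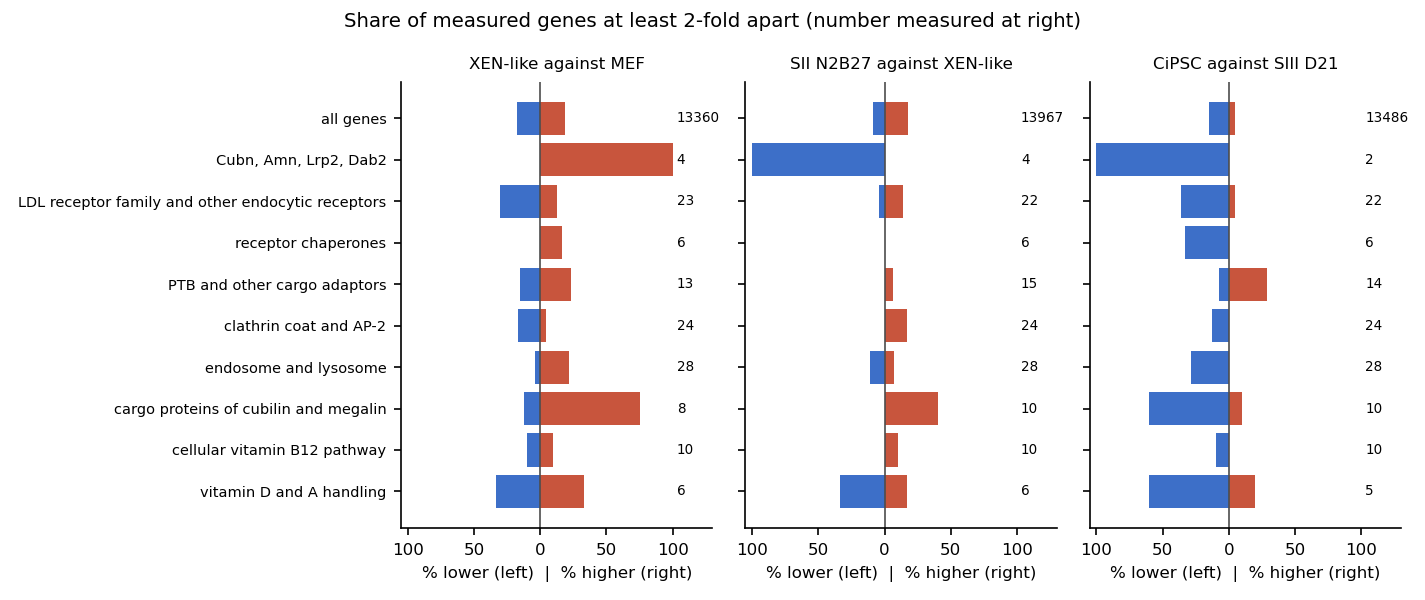
Percent of measured genes at least 2-fold lower (blue, left) or higher (red, right) on the log2(FPKM+1) scale, for all genes, the 4 members and 8 pathway lists in 3 comparisons of single libraries. The number at the right of each bar is the number measured. The members reach 100% in each panel, with 2 measured in CiPSC against stage III day 21, while at most 4 of 24 clathrin genes were called in a direction in any panel.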

How the data were processed

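Bulk RNA-seq libraries were made from total RNA with the NEBNext Ultra RNA kit, per the labels' protocols, and the authors deposited FPKM values for 35275 entries in 14 libraries. The submitters' processing notes name mm10, FastQC, Bowtie2, Bismark and Cell Ranger 2.0.1 with no role. For the bulk data, aligner, counter, annotation and strand setting: not given in the sources used here. Of 30 samples, 12 single-cell and 4 bisulfite samples were not analysed here.

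Because FPKM values of a gene are whole multiples of what 1 read is worth, read counts and gene lengths were recovered from the FPKM values for 23178 entries. Of these, 99.72% gave a whole length within 0.001 base. Another 9866 entries were at 0 throughout, and 2231 were above 0 in 1 library and gave no length. Ratios carry exact 95% binomial intervals on reads, and 0 reads are set against 3 reads.

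Differences were taken as log2(FPKM+1) with a pseudocount of 1 FPKM, over all genes that reached 1 FPKM in at least 1 of the pair, and called at 1. There is 1 library per group, so no test was run, and no count model was used. Groups came from the sample labels. Recovery and calls were tested on simulated data. The members and lists were chosen with earlier results of these data known. Of a list, the 3 genes with the largest difference in a comparison and the 2 with the highest mean over libraries could be named, with endoderm factors and sort markers always. Likeness was Pearson r of log2(FPKM+1) over 14 libraries, and the 5 most like genes were named. Alternatives were a pseudocount of 0.1 FPKM, no filter on low values, a filter of 5 FPKM and median-of-ratios scaling. Promoters came from the RefSeq table of GRCm38.p6. A search of protein motifs was planned and not run, and values of some list genes are not reported here. Python 3.11.15, numpy 2.4.6, pandas 2.3.3, scipy 1.17.1 and matplotlib 3.10.9 were used.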

Additional observations from a re-analysis of the deposited data

Results flagged for a closer look

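Cubn, Amn and Dab2 stood on opposite sides of XEN-like cells in the 2 stage II media, below them in N2B27 cells and above them in FBS/KSR cells. In FBS/KSR cells only Amn passed the 2-fold rule against XEN-like cells, while Cubn differed by 0.26 and Dab2 by 0.56 in log2(FPKM+1). As the difference in log2(FPKM+1) of N2B27 cells minus FBS/KSR cells, Cubn was at -4.54, Dab2 at -3.04 and Amn at -2.81. Each medium has 1 library and both are set against the same XEN-like library, and the difference was not tested.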

How the results depend on the processing

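No paired analysis was possible because each group has 1 library and no test was run. Of 128 counts of called members under the alternatives, 125 stayed within 1.5 times. Leaving out the filter could change none of its 32 counts, since values under 1 FPKM cannot differ by 2-fold on this scale. Many counts were 0 under the main rule as well, so the 125 say little about stability. With a filter of 5 FPKM, 0 members were lower at stage III day 15 than at day 6. With median-of-ratios scaling, 1 member was lower at day 21 than at day 15, since the log2 difference of Lrp2 became -0.97 in place of -1.06. With a pseudocount of 0.1 FPKM, 2 members were lower in sorted OG+ cells than in N2B27 cells, since that of Amn became -1.59 in place of -0.76. Of 64 differences of single genes, 15 moved with that pseudocount and 7 with that scaling. Of these Cubn in XEN-like cells relative to ESC was at 10.04 with the pseudocount in place of 6.73. With 0 reads in ESC, any change in that difference counted as moved. A reversal was counted only for called differences, which these alternatives could not turn, so the 0 reversals found carry no information. With median-of-ratios scaling of the levels, an alternative chosen after seeing the data, the highest levels were 120.4 FPKM for Cubn, 112 for Lrp2 and 209 for Dab2, in the same libraries. Depth limits Amn, which had under 20 reads in 10 libraries. Spread between replicate cultures is unknown for every fold.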
